A study of Rattus norvegicus with 8 samples.

Results

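The gene expression of the rat hippocampus after 3 days of hypobaric hypoxia was set against that after 1 day. Of the 8 arrays of the study, the 4 whose titles name day 1 or day 3 entered the comparison, 2 for each day. All animals were male Sprague Dawley rats, of an age not given in the sources used here, and the exposed groups were kept in a decompression chamber at a simulated 25000 ft with 8% oxygen. The hippocampal RNA of each sample was labelled and hybridised to 1 Agilent rat gene expression array with 1 colour. The 2 normoxic arrays and the 2 arrays titled day 7, whose exposure field gives 5 days, enter the estimate of the spread and are printed beside some results for orientation. The labels do not say that the arrays of a day came from separate animals, so the p-values measure the spread between arrays, which may be technical.

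Low oxygen stabilises the hypoxia-inducible factors (HIF), which bind short sites beside genes for glucose uptake, glycolysis, vessel growth and pH control and raise their transcription. The hippocampus, which forms new memories, is among the brain regions most sensitive to lack of oxygen, and its capillaries grow during a stay at altitude. Over the same days erythropoietin drives the bone marrow to release young red blood cells, which still carry messenger RNA into every perfused tissue.

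The values are log2 processed signals with the 75th percentile of their array taken off, called levels here, so a level of 0 is the signal of the 75th percentile probe. Between 75.7% and 82.1% of spots were well above background on the 4 arrays, with the lower values on day 3. The scanner signal at the 75th percentile was 2214 and 2247 on the day 1 arrays and 1710 and 1566 on the day 3 arrays. Of 21296 genes tested, 6008 (28.2%) were called higher on day 3 and 4905 (23%) lower by limma at a Benjamini-Hochberg adjusted p under 0.05. The arrays of the 2 days did not overlap in 78.1% of genes, with day 3 above in 41.8% and below in 36.3%, and 1.85% were called at least 2-fold higher and 4.63% at least 2-fold lower. Among 1217 probes printed on 10 spots, the arrays of day 1 differed by a median of 0.0183 (log2), against 0.0167 that the spread of the spots alone gives, and those of day 3 by 0.0309 against 0.0185. The 2 day 1 arrays therefore differed by little more than their spots. The days shared no slide row or column (day 1 in row 1, columns 3 and 4; day 3 in row 2, columns 1 and 2), so slide position and day cannot be told apart. Markers of the hippocampus were measured on all arrays: 15 of 16 pyramidal cell genes and 17 of 19 dentate gyrus and newborn neuron genes were well above background on all 4 arrays.

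Genes of neighbouring tissues differed most between the days. On both day 1 arrays the genes of the choroid plexus, the secretory epithelium of the ventricles, were far lower than on day 3, and genes of the striatum, the input nucleus of the basal ganglia, were far higher. Of 26 choroid plexus genes 25 were higher on day 3 and 0 lower, with a median change of 2.65 (log2), beside 0.03 for all genes tested. Of 20 striatal genes 19 were lower on day 3 and 0 higher, with a median of -2.81. At an unadjusted limma p under 0.05 the counts against these directions were also 0. Both lists were chosen with earlier results of these data known, so the counts describe the lists and do not test them. The summed linear level of the choroid plexus list was 8.06 and 8.24 on the day 1 arrays and 190.4 and 179 on the day 3 arrays, and that of the striatal list was 112 and 111 against 26.65 and 26.61. Set against the normoxic mean, the median choroid plexus gene stood at -2.76 on day 1 and -0.11 on day 3, and the median striatal gene at 2.40 on day 1 and -0.24 on day 3. The day 7 arrays gave -2.28 and -2.42 for the choroid plexus list and -0.40 and -0.39 for the striatal list. Day 3 thus lay near normoxia in both lists, low choroid plexus genes were shared by day 1 and day 7, and high striatal genes were found on the day 1 arrays only. Since both day 1 arrays carried this pattern of choroid plexus and striatal genes, no comparison without it can be made within these groups. In whole tissue, fewer cells of a type and less RNA per cell cannot be told apart.

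**Figure D1:**
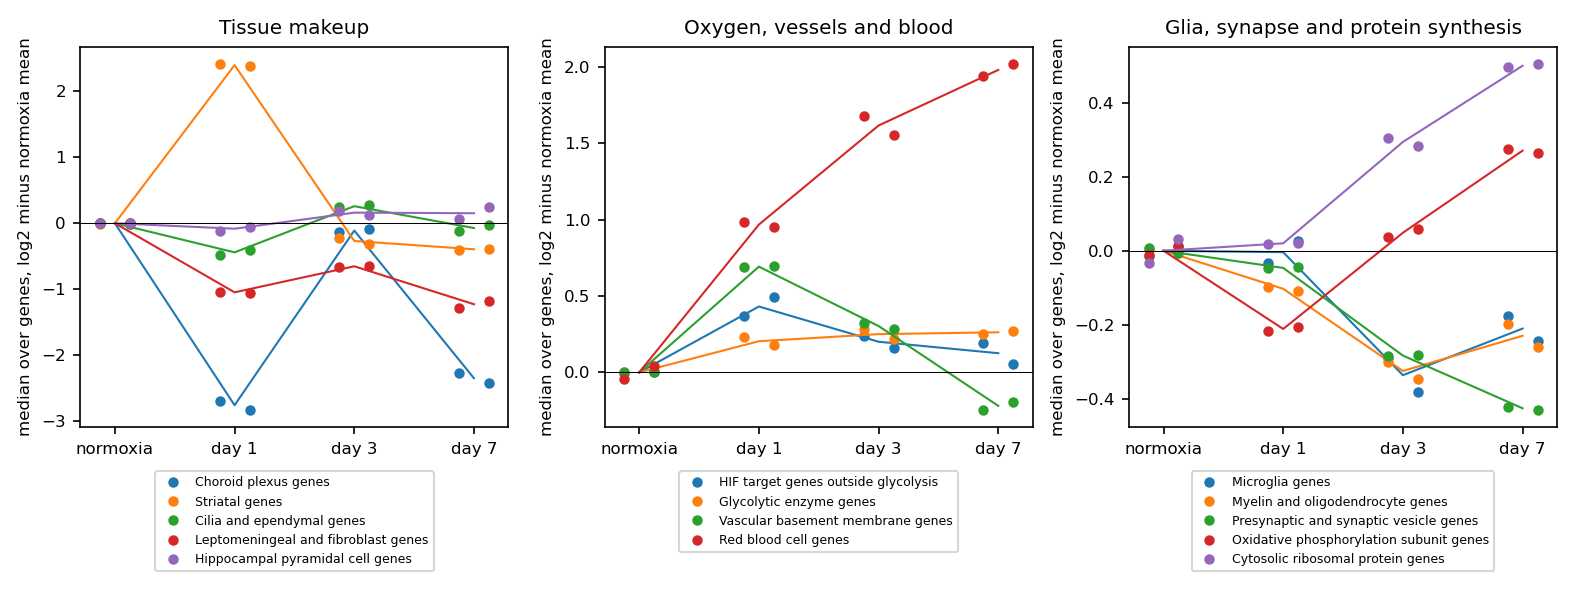
Median level of the genes of 14 lists on each of the 8 arrays, in log2 units relative to the mean of the normoxic arrays; points are arrays, lines join group means, and the vertical scales differ between panels. The choroid plexus list sat at -2.69 and -2.83 on the day 1 arrays and at -0.14 and -0.08 on the day 3 arrays, while the striatal list sat at 2.41 and 2.39 and then at -0.23 and -0.31.

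Choroid plexus genes also led the single genes. Transthyretin (Ttr; probe at chr18:12413621-12413680, rn4), which carries thyroxine and retinol in cerebrospinal fluid, had levels of 0.35 and 0.40 on the day 1 arrays and 7.39 and 7.28 on the day 3 arrays. The groups lay far apart, with a log2 change of 6.96 (SE 0.0705, limma adjusted p = 4.17e-06), or 124-fold. Sostdc1, a secreted antagonist of BMP and Wnt signals, stood at -4.96 and -5.03 on the day 1 arrays and 1.23 and 1.20 on the day 3 arrays, a 73.8-fold rise (adjusted p = 2.91e-06). Tmem27, now named Cltrn, went from -8.89 and -9.35 on day 1, not well above background, to -0.78 and -0.70 on day 3, at least 158-fold higher. Such lower bounds set the brighter group against the lowest signal well above background on each array of the dim group, or the dim probe's own signal where that was higher. The same held for the tight junction gene Cldn2 (at least 14.6-fold), Glycam1 (at least 91.5-fold), the anti-ageing hormone and FGF23 co-receptor gene Kl (at least 8.60-fold) and Mfrp (at least 14.6-fold). The potassium channel gene Kcnj13 rose by 4.90 and the roof plate transcription factor gene Lmx1a by 4.15 on the log2 scale. The coagulation factor gene F5 had a change of 4.68, but only 1 of the 2 day 1 arrays had it well above background, so its size is uncertain. The homeobox gene Otx2 went from -1.87 and -1.92 to 0.28 and 0.32 and Steap1 from -4.77 and -4.81 to -2.39 and -2.35, beside normoxic levels of -0.03 and -0.03 and -2.37 and -2.36, respectively.

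Outside the choroid plexus list, 5 of the 15 largest rises remained. Scgb1c1, a secretoglobin gene, stood at -3.66 and -3.75 on the day 1 arrays and 0.13 and 0.33 on the day 3 arrays, with a log2 change of 3.94 (SE 0.0856, limma adjusted p = 2.94e-05). Cdh3, which encodes P-cadherin, rose by 3.99 (adjusted p = 4.18e-05), and Tmem72 was at least 21.2-fold higher. Adipoq, the gene of the fat cell hormone adiponectin, went from -8.21 and -9.34, not well above background, to -4.61 and -4.46, at least 11.4-fold higher. Normoxic means of Scgb1c1, Cdh3, Tmem72 and Adipoq were -0.89, -3.12, -3.44 and -4.30. Their day 7 means were -2.91, -5.01, -7.70 and -8.28, with Tmem72 and Adipoq not well above background there. These 4 genes were thus low on day 1 and day 7, as the choroid plexus list was. The naming rule required both day 3 arrays above both day 1 arrays for all 5 rises, as found in 41.8% of all genes tested. Vom2r30, a vomeronasal receptor gene, rested on discordant arrays (-9.06 and -8.44 on day 1, -1.98 and -5.37 on day 3). Its adjusted p of 0.0267 was 0.11 and 0.0841 with day 1 replicate 1 or 2 left out, 0.0756 with day 3 replicate 1 left out, and 0.0508 with either normoxic array left out, and its other probe changed by -0.06.

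Of the 15 largest falls, 8 belonged to the striatal list, which was chosen with earlier results of these data known. The dopamine D2 receptor gene Drd2 (probe at chr8:52707670-52707729, rn4), the receptor of the indirect pathway, had levels of 2.65 and 2.62 on the day 1 arrays and -2.02 and -1.98 on the day 3 arrays. That was a 24.9-fold fall (log2 -4.64, SE 0.0357, limma adjusted p = 2.91e-06), with -3.40 from its other probe. The dopamine D1 receptor gene Drd1 was at least 17.1-fold lower, and the adenosine receptor gene Adora2a 11.4-fold lower. The enkephalin precursor gene Penk fell from 3.17 and 3.16 to -0.26 and -0.26, and the striatal GTPase regulator gene Rgs9 from 2.24 and 2.30 to -1.24 and -1.21. The homeobox genes Lhx8 and Isl1, which specify striatal and basal forebrain neurons, were at least 46.7-fold and 12.2-fold lower. Rasd2, a striatum-enriched small GTPase gene, fell from 5.27 and 5.29 to 2.76 and 2.75.

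Vegfb gave the largest fitted fall of any named gene, although the lower bound given above for Lhx8 (46.7-fold) exceeds that for Vegfb. Its single probe (chr1:209657830-209657889, rn4) for this growth factor of the VEGF family, which supports vessel survival and fatty acid uptake, read -2.12 and -2.05 on the day 1 arrays and -8.32 and -8.42 on the day 3 arrays. It was not well above background on day 3, so the fall was at least 37.5-fold (adjusted p = 2.91e-06). The normoxic arrays read -2.38 and -2.45 and the day 7 arrays -2.61 and -2.63, so day 3 alone was low. Among the other falls, the sialidase gene Neu2 went from -0.94 and -0.89 to -4.89 and -4.86, and Rasgrp2, an activator of the small GTPase Rap1, went from -0.09 and -0.08 to -4.03 and -3.72. Dmkn fell by 3.48, Enthd1 by 3.64 (its other probe gave -2.68), and Tulp2 and Sh3rf2 were at least 14.4-fold and 11.1-fold lower. Normoxic means of Neu2, Rasgrp2, Dmkn, Enthd1, Tulp2 and Sh3rf2 were -3.84, -3.24, -5.82, -5.60, -6.05 and -5.91. Their day 7 means were -4.74, -2.69, -6.28, -5.30, -7.26 and -7.56, with Tulp2 and Sh3rf2 not well above background there. Each was thus highest on day 1, as the striatal list was. For these 7 falls the naming rule required both day 3 arrays below both day 1 arrays, as found in 36.3% of all genes tested.

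**Figure D2:**
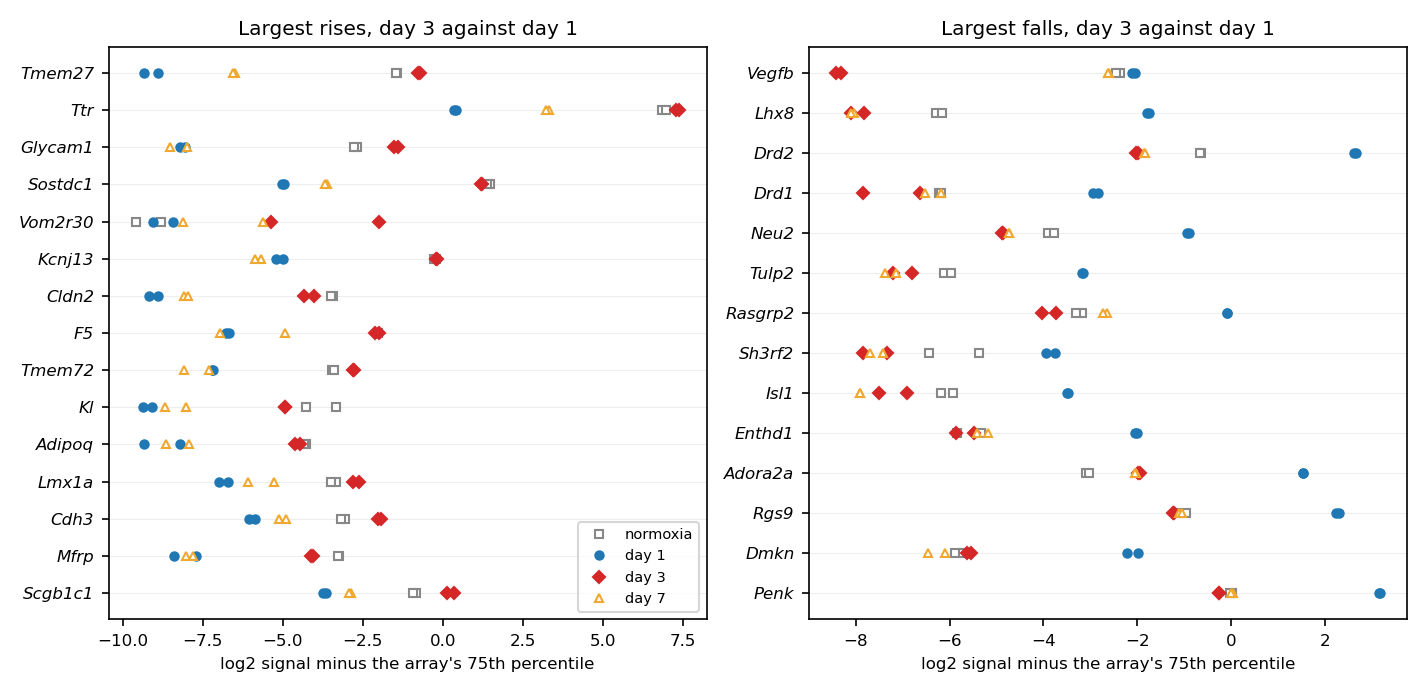
Level on each of the 8 arrays (log2 signal minus the array's 75th percentile) of the genes with the largest rise and the largest fall from day 1 to day 3 that are reported here. For Ttr the day 1 arrays sit at 0.35 and 0.40 and the day 3 arrays at 7.39 and 7.28; for Vegfb only the day 3 arrays, at -8.32 and -8.42, lie away from the others.

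Genes of other bordering cells moved less. Of 17 cilia and ependymal genes, 12 were higher and 2 lower on day 3, with a median of 0.68, and 1 was lower with day 1 replicate 2 or either day 3 array left out. Foxj1, the master regulator of motile cilia, rose from -0.15 and -0.18 to 0.92 and 0.92. The axonemal gene Ccdc40 rose from -3.49 and -3.51 to -2.34 and -2.39, the radial spoke gene Rsph1 by 1.23, and the dynein genes Dynlrb2 and Dnah12 by 1.09 and 0.92, each with all day 3 arrays above all day 1 arrays. The dynein gene Dnai1 had a change of -0.45 with an adjusted p of 0.0254, which ranged from 0.0536 to 0.116 when an array of day 1 or day 3 was left out. Of 19 leptomeningeal and fibroblast genes 9 were higher and 3 lower, with a median of 0.17. The shares were 47.4% and 15.8%, beside 28.2% and 23% of all genes. Igf2 went from 1.64 and 1.64 to 2.89 and 2.89, its binding protein gene Igfbp2, which the choroid plexus also expresses, from 1.33 and 1.38 to 2.71 and 2.74, the collagen-binding proteoglycan gene Fmod rose by 0.88 and the retinoic acid binding gene Crabp2 by 0.72. The other way, the collagen-binding proteoglycan gene Lum fell from -5.54 and -5.51 on day 1 to -6.88 and -6.45 on day 3, where it was not well above background, at least 2.21-fold lower, though the call was lost with normexp background correction.

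Of 20 thalamic and neocortical genes, 12 were lower and 3 higher on day 3 (median -0.38), against 9 and 4 with normexp, and 1 was higher with either day 1 array left out. The cortical gene Lamp5 fell from 0.32 and 0.24 to -1.52 and -1.67, the thalamic genes Prkcd and Ramp3 by 0.80 and 0.89, and the slow troponin gene Tnnt1 by 0.90. Plekhg1 went the other way (0.43, SE 0.107, adjusted p = 0.0213), and its adjusted p was 0.0993 and 0.0639 with day 1 replicate 1 or 2 left out and 0.0892 with day 3 replicate 2 left out. Among 16 hypothalamic neuropeptide genes 6 were higher and 1 lower (median 0.15), 37.5% and 6.25% beside 28.2% and 23% of all genes. With median centring or normexp 7 were higher and 0 lower. The lower call was lost with day 1 replicate 2 or either day 3 array left out, and 2 were lower with either day 7 array left out. The list had rises of 0.68 in the galanin gene Gal, 0.75 in Cartpt, 0.78 in Gnrh1 and 0.75 in Agrp. Among 13 midbrain dopamine neuron genes 4 were higher and 3 lower, or 2 and 3 without day 3 replicate 2 and 8 and 3 with normexp. Ddc, which makes dopamine from L-DOPA, rose from -0.72 and -0.88 to 0.83 and 1.00, while tyrosine hydroxylase (Th) fell from 1.42 and 1.00 to 0.09 and 0.10, with an adjusted p of 0.0111 and 0.0549 without day 1 replicate 1. For the midbrain list the calls were 30.8% higher and 23.1% lower, beside 28.2% and 23% of all genes. Whether tissue makeup had a part in the other results was not tested.

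The targets of HIF outside glycolysis stood lower on day 3 than on day 1. Of 36 genes tested, 19 were lower and 3 higher, with a median change of -0.26 beside 0.03 for all genes, so 52.8% of the list was lower beside 23% of all genes. Relative to the normoxic mean the median gene stood at 0.40 on day 1 and 0.20 on day 3, and 31 of the 36 lay above normoxia on day 1 against 24 on day 3. These 2 differences share the normoxic arrays with each other and their exposed arrays with the comparison of the days. The count of lower genes ranged from 15 to 21 over the 13 other processing settings and from 16 to 19 with 1 array left out. With median centring 17 were lower and 6 higher, and with normexp 15 and 5.

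Promoters of 3 genes with different outcomes are shown because they hold the core of the HIF binding site, ACGTG, marked in capitals together with its reverse complement CACGT. Each runs from 250 bases before the start of the gene to the base before it, 5′ to 3′ on the plus strand, from RefSeq on build GRCr8, with Slc2a1 at chr5:138002272-138002521, Bhlhe40 at chr4:143174200-143174449 and Ankrd37 at chr16:53001257-53001506. Slc2a1 and Bhlhe40 were lower on day 3 and Ankrd37 was not called; the 3 were chosen after their values were seen.
Slc2a1: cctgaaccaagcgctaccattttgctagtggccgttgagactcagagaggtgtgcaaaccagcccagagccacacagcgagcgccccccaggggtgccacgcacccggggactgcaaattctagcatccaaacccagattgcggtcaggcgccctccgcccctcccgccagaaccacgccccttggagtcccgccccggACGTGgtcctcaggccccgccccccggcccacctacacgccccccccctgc
Bhlhe40: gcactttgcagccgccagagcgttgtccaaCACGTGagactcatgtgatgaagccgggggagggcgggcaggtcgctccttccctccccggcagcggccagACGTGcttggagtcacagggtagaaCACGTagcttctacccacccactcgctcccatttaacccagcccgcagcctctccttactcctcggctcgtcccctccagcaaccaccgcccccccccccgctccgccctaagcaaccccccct
Ankrd37: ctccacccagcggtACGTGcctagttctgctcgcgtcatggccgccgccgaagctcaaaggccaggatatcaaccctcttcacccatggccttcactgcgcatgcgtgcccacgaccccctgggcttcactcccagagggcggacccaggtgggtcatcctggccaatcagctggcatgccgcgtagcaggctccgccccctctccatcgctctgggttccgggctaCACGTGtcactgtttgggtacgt
The core lies 51 bases before the start in Slc2a1, at 3 places in Bhlhe40 and at 2 places in Ankrd37. Searching both strands, 13 of the 28 list genes with a promoter in the table held the core, beside 5547 of all 33469 promoters (16.6%). By outcome these were 4 of 15 genes that were lower, 8 of 12 that were not called and 1 of 1 that was higher. A match describes the letters in this window and is not a measured site.

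Single HIF targets fell by up to about 2 log2 units, and those of glucose and lactate handling by less than 1. The blood-brain barrier glucose transporter gene Slc2a1 (probe at chr5:139718779-139718838, rn4) read 3.86 and 3.86 on the day 1 arrays and 3.51 and 3.52 on the day 3 arrays, which did not overlap and gave a log2 change of -0.35 (SE 0.0422, limma adjusted p = 0.00195). The lactate exporter gene Slc16a3 read 0.16 and 0.22 on the day 1 arrays and -0.24 and -0.26 on the day 3 arrays, 1.36-fold lower (adjusted p = 0.000847). Pdk1, a kinase that inhibits pyruvate dehydrogenase, went from -1.76 and -1.77 to -2.42 and -2.37, below its normoxic levels of -2.08 and -2.15. Bhlhe40, a transcriptional repressor induced by HIF, fell by 0.62, and the haem oxygenase gene Hmox1 fell from -1.74 and -1.77 to -2.34 and -2.38. Endothelin 1 (Edn1), a vessel constrictor, fell from -5.14 and -5.08 to -6.11 and -6.31, not well above background, and so was at least 2.13-fold lower, though not called with normexp. Against the list, the transferrin receptor gene Tfrc, which takes up iron, rose from 1.98 and 2.11 to 2.81 and 2.84, but its other probe changed by -0.40 and the mean of the probes was not called.

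Other HIF targets changed by little or were not called between the days. The main vessel growth factor gene Vegfa read 4.23 and 4.27 on the day 1 arrays and 4.14 and 4.26 on the day 3 arrays, with overlapping arrays, a log2 change of -0.05 (SE 0.0699, limma adjusted p = 0.622), and 1.61 and 1.52 in normoxia. Its 3 other probes changed by -0.80 to 0.01, so the probes of this gene disagree. Adrenomedullin (Adm), a vessel dilator peptide, read 0.10 and 0.09 on the day 1 arrays and 0.00 and -0.05 on the day 3 arrays, and its adjusted p of 0.04997, at the edge of the threshold, rose to between 0.0661 and 0.197 when an array of day 1 or day 3 was left out. HIF-3 alpha (Hif3a) read -5.57 and -5.84 on the day 1 arrays and -6.10 and -5.52 on the day 3 arrays. It was not called (limma adjusted p = 0.851), and with a log2 change of -0.10 and an SE of 0.407 its change is uncertain.

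The glycolytic enzymes themselves showed no common direction. Of 19 tested, 5 were lower and 3 higher, with a median of -0.07. That is 26.3% and 15.8% of the list, beside 23% and 28.2% of all genes. Aldolase A (Aldoa) read 3.75 and 3.71 on the day 1 arrays and 2.39 and 2.37 on the day 3 arrays, 2.55-fold lower (adjusted p = 3.77e-05), below its normoxic levels of 3.01 and 3.00. The phosphoglucomutase gene Pgm1 fell by 0.65, pyruvate kinase (Pkm) by 0.58 and lactate dehydrogenase B (Ldhb) by 0.37, while Pgm2 rose by 0.42. The split depended on the scaling: 10 lower and 1 higher with quantile normalization, 13 lower and 1 higher with cyclic loess, and 5 lower and 7 higher with median centring. Without day 1 replicate 2, 1 was higher.

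Among 29 angiogenic factors and receptors 12 were lower and 5 higher (median -0.06), or 41.4% and 17.2% beside 23% and 28.2% of all genes. But 8 were lower and 10 higher with median centring and 7 and 7 with normexp. Quantile normalization gave 8 and 6 and cyclic loess 9 and 6. Angiopoietin 2 (Angpt2; probe at chr16:75939239-75939298, rn4), which loosens vessels for sprouting, read 1.41 and 1.39 on the day 1 arrays and -0.55 and -0.61 on the day 3 arrays. The days lay far apart, with a log2 change of -1.98 (SE 0.0459, limma adjusted p = 3.54e-05), or 3.95-fold, and day 3 remained above the normoxic levels of -3.81 and -3.82. Apelin (Apln), a peptide made by sprouting endothelium, fell from 4.11 and 4.07 to 2.89 and 2.82, and endoglin (Eng), a TGF-beta co-receptor of endothelium, from -1.92 and -1.79 to -3.24 and -3.12. The tip cell gene Esm1 went the other way, from -5.81 and -5.69 to -4.54 and -4.43. The VEGF receptor 2 gene Kdr read 3.67 and 3.63 on the day 1 arrays and 3.66 and 3.70 on the day 3 arrays and was not called (adjusted p = 0.495), beside 1.58 and 1.64 in normoxia. The count of lower genes fell to 6 without day 1 replicate 2 and to 7 without day 3 replicate 2.

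Vascular basement membrane genes mostly fell: 8 of 13 were lower and 2 higher, with a median of -0.33, and 1 was higher with any 1 array other than day 3 replicate 1 left out. The collagen IV genes Col4a1 and Col4a2 read 2.85 and 2.89 on the day 1 arrays and 2.25 and 2.26 on the day 3 arrays, and -3.18 and -3.12 on the day 1 arrays and -3.94 and -3.95 on the day 3 arrays, respectively. Col4a1 thus remained above its normoxic levels of 0.10 and -0.01, while its other probe changed by -1.34 between the days. The laminin chain gene Lamc1 fell by 0.43 (-0.82 from its other probe). The nidogen gene Nid1 fell by 0.87, while its paralogue Nid2 rose from -2.15 and -2.16 to -1.54 and -1.57. Over the list the median gene stood 0.70 above normoxia on day 1 and 0.31 above on day 3.

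Of 26 blood-brain barrier and endothelial genes, 10 were higher and 10 lower, with a median of 0.07. Both counts were 38.5% of the list, beside 28.2% higher and 23% lower over all genes. The median lay below 0 with quantile normalization (-0.041) and cyclic loess (-0.022). Transporters led the rises. The organic anion transporter gene Slc22a8, which the choroid plexus also expresses, read -0.75 and -0.68 on the day 1 arrays and 0.86 and 0.87 on the day 3 arrays, 3.00-fold higher. The efflux pump gene Abcg2 read -2.22 and -2.27 on the day 1 arrays and -0.93 and -0.89 on the day 3 arrays, 2.52-fold higher (adjusted p = 6.62e-05). The probe named Slco1a2, now Slco1a4, a carrier of organic anions, rose by 1.11, and the docosahexaenoic acid carrier gene Mfsd2a by 0.74. Day 3 lay above the normoxic levels in Mfsd2a (1.02 and 1.12 against 0.58 and 0.63) and below them in Abcg2 (-0.93 and -0.89 against -0.13 and -0.19).

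**Figure D3:**
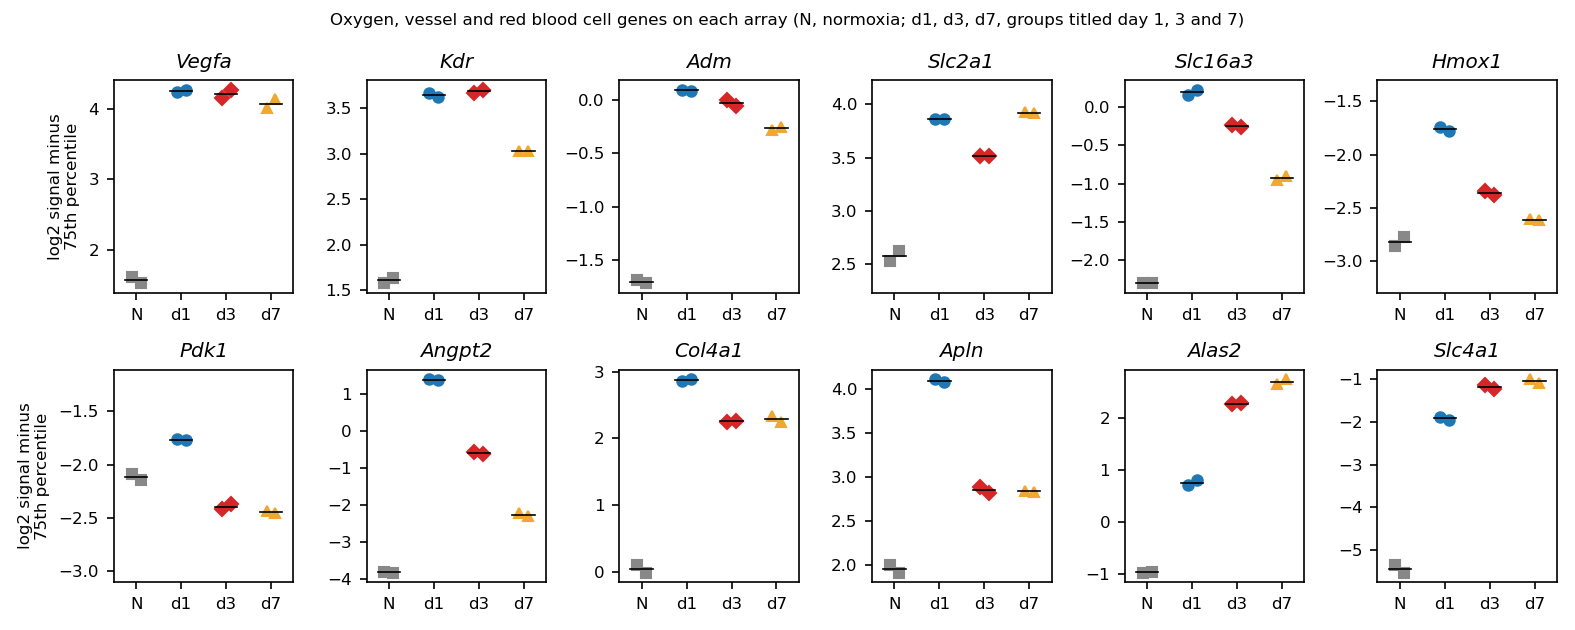
Level of 12 genes of oxygen response, vessels and red blood cells on each array (log2 signal minus the array's 75th percentile); symbols are arrays, horizontal bars group means of 2 arrays, and each panel has its own vertical scale. Vegfa, Kdr and Adm sit at about the same level on both days, Angpt2, Apln and Col4a1 sit lower on day 3, and Alas2 and Slc4a1 sit higher.

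Red blood cell genes rose: 11 of 15 were higher and 1 lower on day 3, with a median of 0.61, and 0 were lower when any 1 array of day 1 or day 3 was left out. Alas2 (probe at chrX:39810353-39810412, rn4), which starts haem synthesis in young red blood cells, read 0.72 and 0.81 on the day 1 arrays and 2.28 and 2.29 on the day 3 arrays, without overlap and with a log2 change of 1.52 (SE 0.0514, limma adjusted p = 7.44e-05). The level was -0.97 and -0.96 in normoxia and 2.66 and 2.75 on the day 7 arrays, so the 4 groups ranked in order of time and no arrays overlapped. Hemgn, a nuclear protein of red cell precursors, read -3.40 and -3.44 on the day 1 arrays and -1.98 and -2.04 on the day 3 arrays, and the chloride-bicarbonate exchanger gene Slc4a1 read -1.88 and -1.95 on the day 1 arrays and -1.14 and -1.24 on the day 3 arrays. The beta globin probes Hbb and Hbb-b1 rose by 0.72 and 0.68, and near-identical globin copies can share signal. The alpha haemoglobin stabilising gene Ahsp rose by 0.69. The median gene stood 0.97 above the normoxic mean on day 1 and 1.63 on day 3.

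Genes of other blood cells parted ways. Of 18 neutrophil, platelet and other leukocyte genes 7 were higher and 3 lower (median 0.10). That is 38.9% and 16.7%, beside 28.2% and 23% of all genes. Median centring gave 9 and 2 and normexp 13 and 2. Platelet factor 4 (Pf4) read -2.52 and -2.57 on the day 1 arrays and -0.92 and -0.92 on the day 3 arrays, 3.09-fold higher. Alox15, which oxidises arachidonic acid in reticulocytes and eosinophils, read -2.24 and -2.26 on the day 1 arrays and -0.23 and -0.24 on the day 3 arrays, 4.04-fold higher, and the lymphocyte antigen gene Cd52 rose from -0.87 and -0.81 to 0.35 and 0.25. The neutrophil calprotectin genes fell, S100a8 from -1.86 and -1.79 to -3.34 and -3.25 and S100a9 from -1.52 and -1.40 to -3.10 and -3.10. Both then lay close to their normoxic levels of -3.15 and -3.19 and -3.18 and -3.17.

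Inflammatory cytokine and chemokine genes were called about as often as all genes, with 7 of 28 higher and 6 lower and a median of 0.00. These were 25% and 21.4% of the list, beside 28.2% and 23% of all genes. With median centring 12 were higher and 4 lower, and with normexp 14 and 4. Interleukin 1 beta (Il1b) fell from -4.17 and -4.19 to -5.09 and -5.11. The neutrophil chemokine gene Cxcl2 fell from -5.87 and -6.28 to -8.19 and -8.32, not well above background and at least 2.36-fold lower, though not called with normexp, while its relative Cxcl1 rose from -5.61 and -5.64 to -4.74 and -4.74. The stem cell chemokine gene Cxcl12 rose by 0.54 and the T cell chemokine gene Ccl5 by 0.63. Of 27 interferon-stimulated genes 11 were lower and 5 higher (median -0.21), against 9 lower and 10 higher with median centring, and the count of higher genes was 2 without day 1 replicate 1 and 3 without day 1 replicate 2 or day 3 replicate 1. Ifit3, which binds viral RNA, fell from -2.33 and -2.41 to -3.72 and -3.74, the guanylate binding gene Gbp2 by 0.72 and the RNase L activator gene Oas1a by 0.70, while Mx2 and Lgals3bp rose by 0.46 and 0.52.

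Microglia genes were lower where they were called at all: 13 of 22 were lower and 0 higher by limma, and 0 higher at an unadjusted p under 0.05, with a median of -0.22. At the other settings between 0 and 3 were higher, with 3 higher and 10 lower under median centring and 1 and 11 without day 1 replicate 2. The CSF1 receptor gene Csf1r, on which microglial survival depends, read -0.35 and -0.32 on the day 1 arrays and -1.83 and -1.79 on the day 3 arrays, 2.78-fold lower (adjusted p = 5.60e-05), with -0.56 from its other probe. The homeostatic microglia gene Tmem119 read -0.50 and -0.48 on the day 1 arrays and -1.64 and -1.66 on the day 3 arrays, 2.24-fold lower, with -1.16 from its other probe. The complement gene C1qc fell by 1.00, the protease gene Ctss by 0.45, and Fcrls, now Fcrl2, by 0.43. For all 5 genes the day 3 arrays lay below both the day 1 and the normoxic arrays. Of 8 MHC class II antigen presentation genes 4 were lower and 2 higher (50% and 25%, beside 23% and 28.2% of all genes). The reverse, 2 lower and 4 higher, was found with median centring or normexp. The split was 3 and 3 with quantile normalization, 4 and 4 with cyclic loess, and 3 lower and 1 higher without day 1 replicate 1. RT1-DMb, a chaperone of peptide loading, fell by 0.67, whereas the invariant chain gene Cd74 rose from -3.41 and -3.36 to -2.93 and -2.90, below its normoxic levels of -1.75 and -1.78. The call of RT1-DMa (-0.17, SE 0.0399, adjusted p = 0.0174) was lost without day 1 replicate 1 (0.0947) or day 3 replicate 2 (0.0819). That of RT1-Da (0.41, SE 0.101, adjusted p = 0.0211) was lost without day 1 replicate 1 (0.0809), day 3 replicate 1 (0.0546) or day 3 replicate 2 (0.0893).

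Myelin and oligodendrocyte genes were mostly lower, 18 of 29 against 6 higher, with a median of -0.15. In this list 62.1% were lower and 20.7% higher, beside 23% and 28.2% of all genes. With median centring 12 were lower and 7 higher, and with quantile normalization or cyclic loess 21 and 2. The myelin enzyme gene Cnp read 2.37 and 2.45 on the day 1 arrays and 0.93 and 0.97 on the day 3 arrays, 2.74-fold lower (adjusted p = 0.000120). The myelin tight junction gene Cldn11 fell from 0.17 and 0.20 to -1.10 and -1.15, and the myelin proteolipid gene Mal from 2.01 and 2.07 to 0.99 and 1.05. Myrf, the transcription factor that switches on myelin genes, fell by 1.14, and Enpp6, an enzyme of newly formed oligodendrocytes, by 0.92. Myelin basic protein (Mbp) went the other way (0.45, SE 0.137, adjusted p = 0.0424), with an adjusted p between 0.0657 and 0.179 when an array of day 1 or day 3 was left out, and its other probe changed by -0.09. The count of higher genes fell to 2 without day 1 replicate 1 or day 3 replicate 2 and to 3 without day 3 replicate 1.

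Among 19 astrocyte genes, 7 were lower and 5 higher (median -0.12), or 36.8% and 26.3% beside 23% and 28.2% of all genes. Median centring gave 4 lower and 6 higher, quantile normalization 11 and 4 and cyclic loess 13 and 4. Vimentin (Vim), an intermediate filament of reactive astrocytes and of vessel cells, read 1.89 and 1.88 on the day 1 arrays and 0.81 and 0.74 on the day 3 arrays, 2.15-fold lower, with day 3 at the normoxic level of 0.70 and 0.71. Mlc1, a protein of astrocyte endfeet, fell by 0.81, and the growth factor receptor gene Fgfr3 by 0.41 (-1.285 from its other probe). Glial fibrillary acidic protein (Gfap) read -0.52 and -0.43 on the day 1 arrays and -0.99 and -1.01 on the day 3 arrays, but its other probe changed by 0.44 and the mean of the probes was not called. The gap junction gene Gja1 rose from 3.80 and 3.79 to 4.12 and 4.13, and the secreted iron carrier gene Lcn2 from -6.22 and -6.73 to -4.83 and -4.73. The count of higher genes fell to 3 without day 1 replicate 2.

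Pyramidal cell genes were higher more often than lower. Of 16 tested 10 were higher and 3 lower, with a median of 0.29, and the counts stayed at 9 to 11 higher and 3 to 4 lower over the 13 other settings. Neurod6, a transcription factor of pyramidal neurons, read 1.74 and 1.75 on the day 1 arrays and 2.35 and 2.37 on the day 3 arrays, and the CA1 gene Fibcd1 read 4.29 and 4.25 on the day 1 arrays and 4.81 and 4.77 on the day 3 arrays. Cpne4 rose by 0.87 and the POU factor gene Pou3f1 by 0.55, while Etv1 fell from -0.80 and -0.85 to -1.57 and -1.68. Of 19 dentate gyrus and newborn neuron genes 7 were higher and 3 lower (median 0.11), which is 36.8% and 15.8% of the list beside 28.2% and 23% of all genes, and the median was -0.00089 without day 1 replicate 1. The transcription factor genes Neurod1 and Neurod2 rose by 0.77 and 0.63, and Tubb3, the neuronal beta tubulin gene, rose from 3.25 and 3.25 to 3.87 and 3.93. The calcium buffers fell, calretinin (Calb2) by 0.90 and calbindin (Calb1) by 0.49.

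Inhibitory interneuron genes went the other way, with 10 of 19 lower, 1 higher and a median of -0.17, against 8 and 3 with normexp. Dlx5, a transcription factor of GABA neurons, read 0.30 and 0.32 on the day 1 arrays and -1.08 and -0.97 on the day 3 arrays, 2.52-fold lower, and the vesicular GABA transporter gene Slc32a1 read 4.77 and 4.72 on the day 1 arrays and 3.91 and 3.90 on the day 3 arrays, 1.79-fold lower. The serotonin receptor gene Htr3a fell by 0.37. Dlx5 and Slc32a1 are also expressed in the GABA neurons of the striatum, whose genes were high on day 1, and its part in these falls was not tested. Cholecystokinin (Cck) was the member called higher (0.27, SE 0.0690, adjusted p = 0.0248), with an adjusted p between 0.0796 and 0.1 when an array of day 1 or day 3 was left out.

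Presynaptic and synaptic vesicle genes were lower in 14 of 25 and higher in 6 (median -0.20). The shares were 56% and 24%, beside 23% and 28.2% of all genes. The vesicle GTPase gene Rab3a read 0.39 and 0.34 on the day 1 arrays and -0.54 and -0.53 on the day 3 arrays, 1.86-fold lower, the fusion ATPase gene Nsf fell by 0.90, the endocytic GTPase gene Dnm1 by 0.65 and the SNARE gene Stx1a by 0.43. Synapsin 2 (Syn2) rose from 0.57 and 0.60 to 1.19 and 1.20. The count of higher genes fell to 3 without day 1 replicate 2. Among 20 glutamate receptor subunit genes 7 were higher and 4 lower, with a median of -0.01 that lay above 0 under 10 of the 21 other settings. These were 35% and 20% of the list, beside 28.2% and 23% of all genes. The NMDA receptor subunit gene Grin2a rose by 0.59, the AMPA receptor subunit gene Gria2 by 0.48, the kainate receptor subunit gene Grik5 by 0.55 and Grin2c by 0.37, and the metabotropic receptor gene Grm3 fell by 0.70. Among 13 GABA-A receptor subunit genes 5 were lower and 3 higher (median -0.14), or 38.5% and 23.1% beside 23% and 28.2% of all genes. With median centring 2 were lower and 4 higher, and with normexp 2 and 3. Single subunits moved both ways, with Gabra2 up by 0.45 and Gabrd and Gabra4 down by 0.38 and 0.24, although Gabra4 was not called with median centring. Gabra3 read -5.79 and -5.68 on the day 1 arrays and -6.64 and -6.98 on the day 3 arrays, where 1 of the 2 arrays had it well above background, and its change of -1.07 turned to 0.10 with normexp.

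Immediate early genes, which neuronal activity and stress switch on within minutes, divided. Of 29 tested 13 were lower and 10 higher (median -0.10), or 44.8% and 34.5% beside 23% and 28.2% of all genes. The split was 11 and 11 with median centring, 14 and 7 with quantile normalization and 14 and 6 with cyclic loess. Dusp1, a phosphatase that ends MAP kinase signals, read -0.83 and -0.74 on the day 1 arrays and -3.63 and -3.51 on the day 3 arrays, 6.89-fold lower (adjusted p = 3.54e-05), below the normoxic -1.84 and -1.74. The transcription factor gene Fos read -1.72 and -1.79 on the day 1 arrays and -2.55 and -2.67 on the day 3 arrays, a fall of 0.85 (adjusted p = 0.000409), Egr2 fell by 1.12, and the synaptic plasticity gene Arc fell from 2.59 and 2.61 to 1.74 and 1.72. In the other direction, brain-derived neurotrophic factor (Bdnf) read -2.56 and -2.53 on the day 1 arrays and -1.56 and -1.49 on the day 3 arrays, 2.03-fold higher (adjusted p = 0.000118), and the nuclear receptor gene Nr4a3 rose from -0.16 and -0.10 to 0.76 and 0.80. The normoxic levels of Bdnf were -1.81 and -1.78, between the 2 days. The count of higher genes fell to 5 without day 1 replicate 1 and to 6 without any 1 of the other 3 arrays of the comparison.

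Glucocorticoid response genes, which follow the adrenal stress hormone, were lower in 8 of 22 and higher in 3 (median -0.13), against 4 and 5 with median centring and 12 and 2 with quantile normalization or cyclic loess, and were lower in 5 without day 1 replicate 2. The stress hormone targets Fkbp5 and Sgk1 were not called: Fkbp5 read 1.80 and 1.78 on the day 1 arrays and 1.77 and 1.67 on the day 3 arrays and Sgk1 read 1.86 and 1.81 on the day 1 arrays and 1.82 and 1.82 on the day 3 arrays, with adjusted p of 0.291 and 0.809. The crosslinking enzyme gene Tgm2 fell by 0.58 and the phagocytic receptor gene Mertk by 1.02, while the zinc finger gene Zbtb16 rose by 0.66. Among 16 core circadian clock genes 11 were lower and 2 higher (median -0.40), against 8 and 3 with median centring. The repressor gene Nr1d1 read -1.88 and -2.07 on the day 1 arrays and -3.04 and -3.13 on the day 3 arrays, 2.16-fold lower, Npas2 fell by 0.41 (-0.16 from its other probe), and Per2 rose from -0.56 and -0.55 to -0.04 and -0.07. Clock rose by 0.77, with -0.09 from its other probe, and the mean of its probes was not called. The count of lower genes fell to 7 without day 1 replicate 1 and to 6 without day 1 replicate 2, and the labels used here give no hour of sampling.

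**Figure D4:**
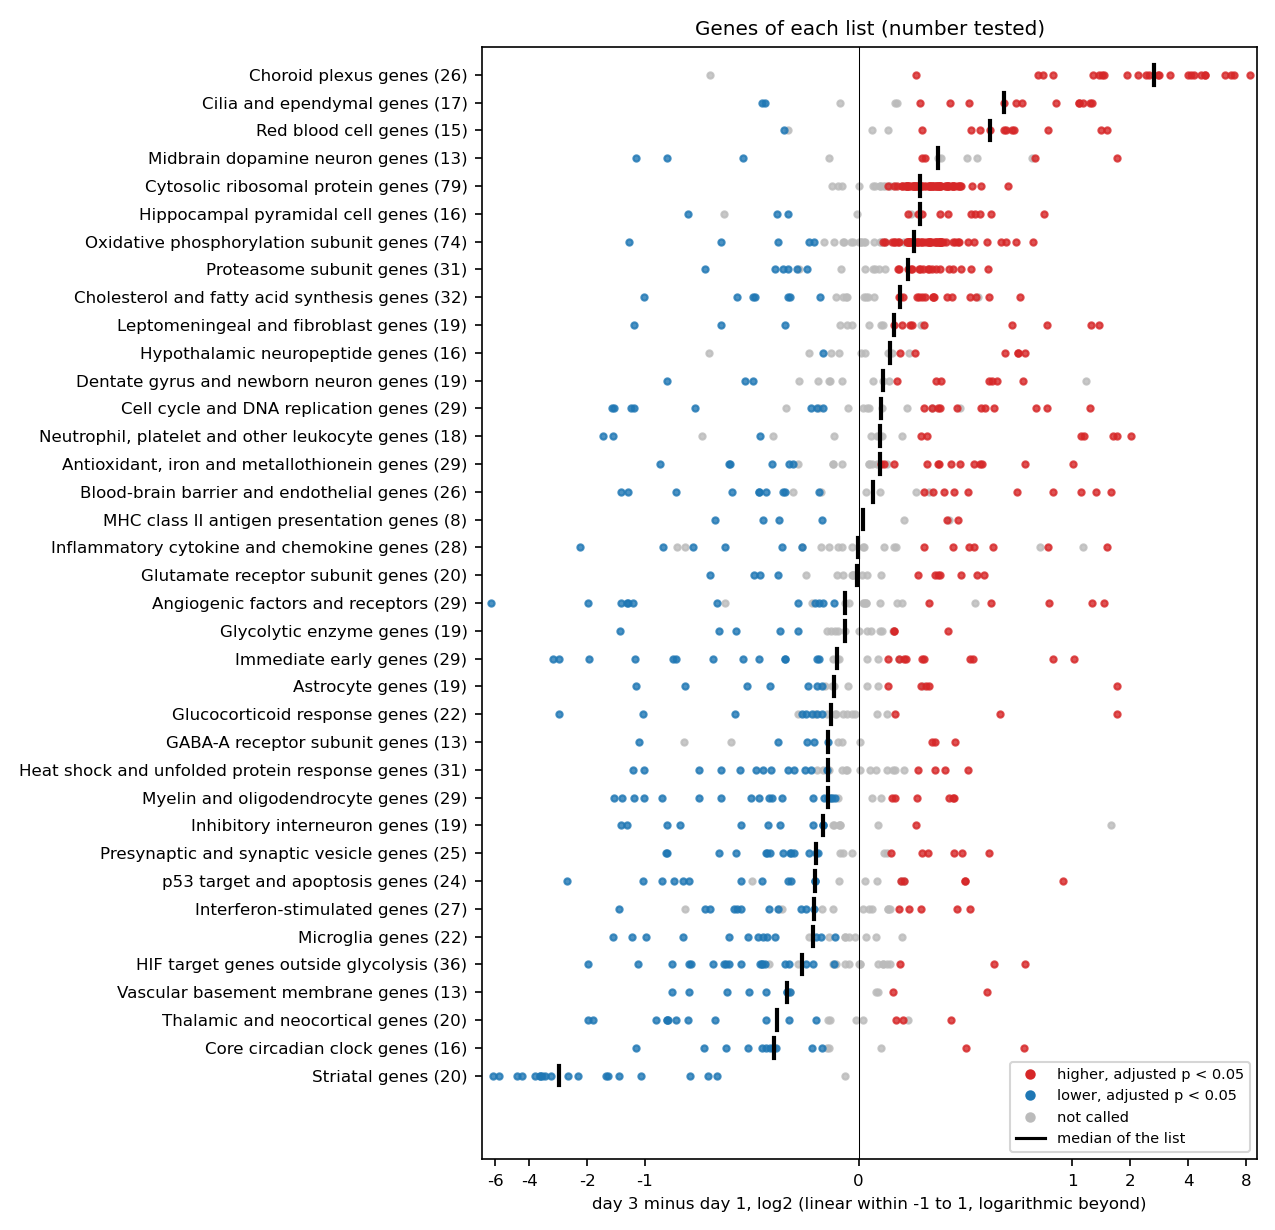
Change from day 1 to day 3 of every tested gene of the 37 lists (log2; linear between -1 and 1 and logarithmic beyond), with the number tested in brackets, list medians as black bars, and colour for the call at adjusted p under 0.05. Choroid plexus genes (median 2.65) and striatal genes (median -2.81) lie away from all other lists, whose medians run from -0.40 to 0.68.

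Ribosomal protein and respiratory chain genes rose by small amounts in large number, and their count hung on the scaling. Of 79 cytosolic ribosomal protein genes 62 were higher and 0 lower by limma, and 0 lower at an unadjusted p under 0.05, with a median of 0.29. Rps24 read 3.33 and 3.36 on the day 1 arrays and 3.79 and 3.78 on the day 3 arrays, without overlap, and Rps9 and Rps19 rose by 0.48 and 0.70, with 0.25 and 0.44 from the other probes of Rps19. With quantile normalization 13 were higher and 6 lower, with cyclic loess 12 and 7, and with median centring 75 and 0. Of 74 oxidative phosphorylation subunit genes 53 were higher and 5 lower (median 0.26), against 22 and 11 with quantile normalization, 23 and 14 with cyclic loess and 60 and 3 with median centring. The complex I genes Ndufa10, Ndufa5 and Ndufb3 rose by 0.82, 0.73 and 0.69. The heart and muscle isoform Cox6a2 fell from -2.24 and -2.26 to -3.47 and -3.45, and Atp5b, now Atp5f1b, the catalytic ATP synthase subunit gene, from 3.34 and 3.32 to 2.67 and 2.70. Of 31 proteasome subunit genes 18 were higher and 6 lower (median 0.23), with 13 and 6 under quantile normalization and 9 and 6 under cyclic loess. These 18 and 6 were 58.1% and 19.4% of the list, beside 28.2% and 23% of all genes. Psmc6 rose by 0.60, Psma5 by 0.42 and Psmb2 by 0.36, while Psmd14 fell by 0.72 and Psmd3 by 0.39.

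Brighter genes were called higher more often over the whole array. In the dimmest decile of levels 4.93% of genes were higher and 17.2% lower on day 3, with a median change of -0.26, and in the brightest decile 56.5% were higher and 9.34% lower, with a median of 0.21. In the second brightest decile 46.9% were higher. Of the ribosomal protein genes 77 of 79 lay in the 2 brightest deciles, of the respiratory chain genes 68 of 74 and of the proteasome genes 24 of 31. The part of signal level in the rise of these lists was not tested. Median centring moved the median of all genes from 0.03 to 0.15 and the share of calls that were higher from 55.1% to 68.9%. Normexp background correction moved these to 0.16 and 70.8%.

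**Figure D5:**
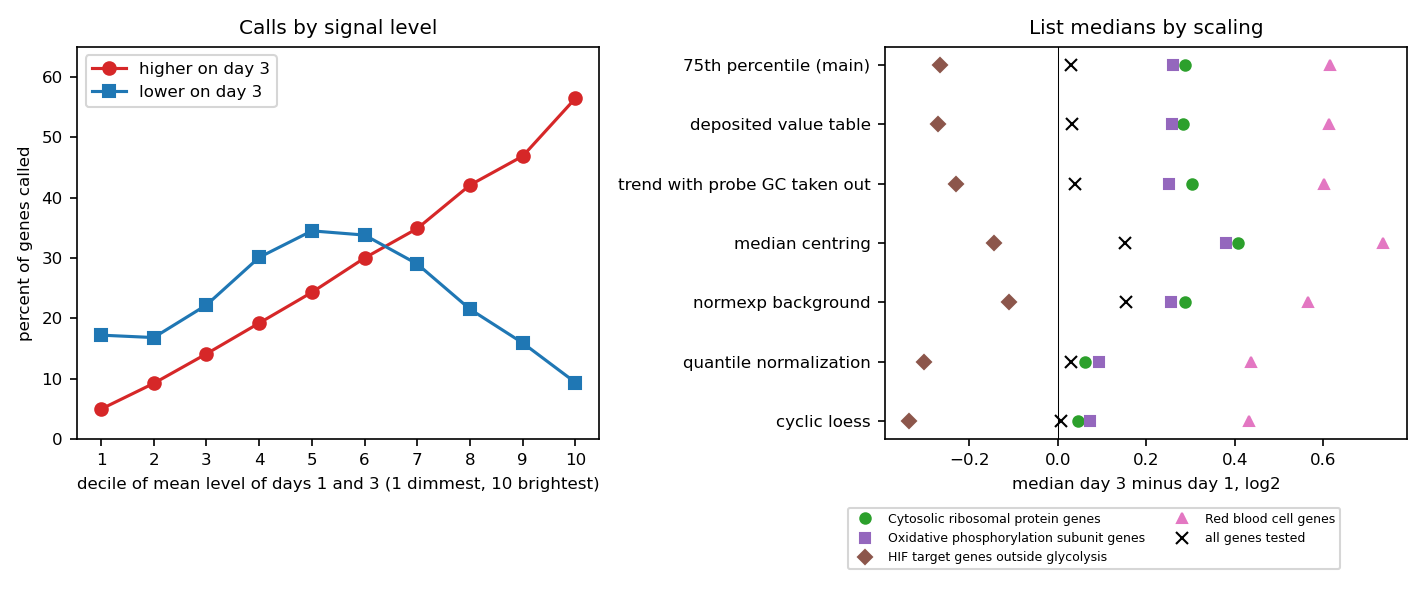
Left, percent of genes called higher or lower on day 3 in each decile of mean level over the 4 arrays; right, median change from day 1 to day 3 (log2) of 4 gene lists and of all genes under 7 scalings or background corrections. The share of genes higher on day 3 climbs from 4.93% to 56.5% across the deciles, and the ribosomal and respiratory chain medians move towards 0 with quantile normalization and cyclic loess while the HIF target and red blood cell medians keep their side of 0.

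Cholesterol and fatty acid synthesis genes, which the brain needs to make its own sterols, were higher in 16 of 32 and lower in 7 (median 0.19). The shares were 50% and 21.9%, beside 28.2% and 23% of all genes. With quantile normalization and with cyclic loess 12 were higher and 9 lower, with medians of 0.046 and 0.025, and with normexp 14 and 3. The desaturase probe named Scd1, now Scd, read -1.44 and -1.41 on the day 1 arrays and -0.71 and -0.63 on the day 3 arrays, the mevalonate pathway gene Idi1 rose by 0.52, and Sqle, which starts the sterol ring, by 0.41. Mvd and Tm7sf2 rose by 0.61 and 0.44. All 5 lay below their normoxic levels on both days. Relative to the normoxic mean, 1 of the 32 genes lay higher on day 1 and 6 on day 3.

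Cell cycle and DNA replication genes were higher in 11 of 29 and lower in 8 (median 0.11), 37.9% and 27.6% of the list beside 28.2% and 23% of all genes. The split was 15 and 5 with median centring, 11 and 3 with quantile normalization and 18 and 3 with normexp. The proliferation marker gene Mki67 read -3.22 and -3.21 on the day 1 arrays and -1.96 and -2.01 on the day 3 arrays, 2.35-fold higher, with 0.71 and 1.44 from its other probes. The replication helicase gene Mcm4 rose from 0.34 and 0.38 to 1.19 and 1.18, with 0.13 from its other probe, and the mitotic kinase genes Cdk1 and Plk1 rose by 0.59 and 0.46. Cyclin D1 (Ccnd1) fell from -1.81 and -1.82 to -2.57 and -2.60, and the ribonucleotide reductase gene Rrm1, not well above background on day 3, was at least 2.44-fold lower but was not called with quantile normalization or normexp. The count of lower genes fell to 5 without day 1 replicate 1 or day 3 replicate 2 and to 4 without day 1 replicate 2.

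Of 31 heat shock and unfolded protein response genes, which serve protein folding, 13 were lower and 4 higher (median -0.14), against 11 and 10 with median centring (median -0.023). The disulphide isomerase genes Pdia4, Pdia6 and Pdia3 fell by 0.75, 0.48 and 0.41, and the inducible heat shock gene Hspa1b fell from 0.71 and 0.70 to 0.13 and 0.16, near its normoxic 0.02 and -0.05. Ddit3, a stress transcription factor gene that can drive apoptosis, rose from 2.32 and 2.30 to 2.84 and 2.79. Among 24 p53 target and apoptosis genes 12 were lower and 5 higher (median -0.20). That is 50% and 20.8%, beside 23% and 28.2% of all genes. Median centring gave 9 and 9 and normexp 9 and 6. Phlda3, an inhibitor of Akt, fell by 0.92, caspase 9 (Casp9) by 0.80 and the survival gene Mcl1 by 0.45, while Perp and the apoptosome gene Apaf1 rose by 0.95 and 0.50. The count of lower genes was 7 without day 1 replicate 2, and that of higher genes was 2 without day 1 replicate 1 and 3 without day 1 replicate 2 or day 3 replicate 2.

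Of 29 antioxidant, iron and metallothionein genes 13 were higher and 6 lower (median 0.10). That is 44.8% and 20.7%, beside 28.2% and 23% of all genes. Quantile normalization gave 7 higher and 10 lower, and cyclic loess 8 and 9. Haptoglobin (Hp), which binds free haemoglobin, read -1.51 and -1.51 on the day 1 arrays and -0.52 and -0.47 on the day 3 arrays, 2.02-fold higher (adjusted p = 0.000103), beside -1.97 and -1.96 in normoxia. Thioredoxin (Txn1) rose by 0.58 and the lipid peroxide reductase gene Gpx4 by 0.47 (0.13 from its other probe). The extracellular glutathione peroxidase gene Gpx3, not well above background on day 3, had a change of -0.93 with an adjusted p of 0.0176, which lay between 0.0562 and 0.0791 when an array of day 1 or day 3 was left out.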

How the data were processed

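Hippocampal RNA of 8 rat samples was measured on 1-colour Agilent arrays (design 028279). Per the file headers, the scanner files hold the processed signal intensity of every spot from Agilent Feature Extraction 11.5.1.1, with background already subtracted, and probe annotation on build rn4. The authors' deposited value table holds log2 values. After 1 constant per array, 96.7% to 97.4% of them lay within 0.05 of log2 signal minus the 75th percentile of the same array.

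Control spots and outlier flags were left out, and no spot was saturated. Spots of a probe were averaged, log2 values were scaled to each array's 75th percentile, and a probe was kept where both arrays of any group had it well above background. A gene was represented by its brightest probe. Symbols came from the files, with current names by RefSeq accession for 12936 genes. With limma 3.58.1 (R 4.3.3), 1 model with a mean for each of the 4 groups was fitted to all 8 arrays (lmFit, eBayes, 4 residual degrees of freedom), and day 3 minus day 1 was tested with a two-sided moderated test and Benjamini-Hochberg adjustment over 21296 genes. The number of arrays limits the precision. The fit was run on simulated data with independent noise drawn from the spread of the day 1 arrays and with few changed genes. That checks the code and not the rate of false calls in these data.

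Named were the 15 largest rises and falls (called, with a symbol, arrays of the days apart), up to 5 members of each of 37 lists by p, the called member furthest the other way, and a few genes given whatever their result; a few genes that met these rules are not reported here. Members and lists were chosen with earlier results of these data known, and lists are described without a set test. The labels number no pairs; deviations of the first arrays of day 1 and day 3 from their means correlated at -0.0025 across genes, which gave no sign of pairing. Alternatives changed the scaling, background correction, probe filter, probe summary, prior, arrays in the fit and replicate block.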

Additional observations from a re-analysis of the deposited data

How the results depend on the processing

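The number of genes called between day 3 and day 1 (10913, with 6008 higher and 4905 lower) ran from 8060 to 11051 when 1 array was left out (higher 4312 to 6010, lower 3650 to 5041), and over the other settings that kept the threshold it ran from 10085 to 11747. With the arrays' numbers as a replicate block it was 10387 (5722 higher, 4665 lower), and since the numbers do not pair the arrays this block has no basis in the design. Asking also for a change of at least 2-fold left 1380 genes, 394 higher and 986 lower. The 75th percentile scaling called 55.1% of changed genes higher, median centring 68.9% and normexp 70.8%. Of 214 named genes, 189 kept their label under every setting in which they were tested. For a called gene that meant the same direction and call, and for the others only that they stayed uncalled. Of the called genes, 22 lost the call or changed sign under at least 1 setting. Among called genes signs turned for Adm with median centring (0.0041), for Cck with quantile normalization (-0.0098) and cyclic loess (-0.0087), and with normexp for Gabra3 (0.10). The signs of genes not called were not compared. The median of 10 of 37 lists changed sign under at least 1 setting. With both values beyond the spread of the list's median between arrays it did so for angiogenic factors (0.057) and glycolytic enzymes (0.055) with median centring, for blood-brain barrier genes with quantile normalization (-0.041) and with the filter on all 4 arrays (-0.071), and for GABA-A receptor subunits with normexp (0.056). With at least 1 value within that spread it also did so for blood-brain barrier genes with cyclic loess (-0.022), the GC trend taken out (-0.031) and the mean of probes (-0.015), for glycolytic enzymes without day 3 replicate 2 (0.032), for angiogenic factors with normexp (0.00069), for astrocyte (0.0033) and immediate early genes (0.018) with median centring, for the latter with normexp (0.00018), for the dentate list without day 1 replicate 1 (-0.00089), and for the glutamate receptor, inflammatory and MHC class II lists, whose medians lay near 0. The causes were not tested. Day 3 was dimmer: 18229 genes were well above background on both of its arrays against 20035 on day 1, and 530 called genes were not well above background on day 3 only, which leaves only a bound on their fall.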

Other observations

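Most of the large changes lay outside every list described. Among genes with a symbol, 259 were called and at least 2-fold higher on day 3, of which 44 belonged to any of the 37 lists (21 to the choroid plexus list and 5 to the cilia list). At least 2-fold lower were 639, of which 58 belonged to any list (16 to the striatal list). Of all genes called, 68 were not well above background in either group.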
